A study of Mus musculus with 12 samples.

Results

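The 9 genes described here encode proteins that bind mRNA and set how long it lasts: the zinc finger proteins Zfp36, Zfp36l1 and Zfp36l2, the endonuclease Zc3h12a, the roquins Rc3h1 and Rc3h2, the stabilising protein Elavl1, and the Y-box proteins Ybx1 and Ybx3. They were chosen by name, with earlier results of these data known. Each was found as 1 of the 14323 gene symbols in the table of counts. The study asked how the inhibitory collagen receptor LAIR-1 acts on T cell activation. Spleen naïve CD8 T cells from 3 wild type mice were split over 4 coated wells per mouse, and their RNA was counted by sequencing of 3′ ends (an adapted CEL-seq protocol).

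All wells held 100000 cells for 6 hours. The unstimulated isotype group received control antibodies only, and the unstimulated anti-LAIR-1 group received 2.5 µg/ml of the agonistic clone 2C7. The anti-CD3 isotype group received 2.5 µg/ml anti-CD3, which triggers the T cell receptor, with the control antibody. The anti-CD3 anti-LAIR-1 group received 2.5 µg/ml of each. Each group has 3 libraries, 1 from each mouse. As a model, this is antibody fixed to plastic acting on sorted naïve CD8 T cells, without antigen-presenting cells or added costimulation.

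Total counts ran from 1781218 to 7725545 per library, with group medians, without anti-CD3, of 2304214 for isotype and 3548881 for anti-LAIR-1. With anti-CD3 the medians were 4883760 for isotype and 6204054 for anti-LAIR-1. Levels are given as CPM, counts scaled to library size with edgeR's TMM factors. A floor of 3 counts corresponded to 0.407 to 1.58 CPM on this scale and covers counting error only. The intervals are from the edgeR fits and include variation between libraries. The share of counts from mitochondrially encoded genes averaged 18.8% and 19.7% in the unstimulated groups and 12.1% and 12.4% in the anti-CD3 groups. A refit without these genes and the symbol Rn45s called as many of the genes described here as the main fit in each comparison. For anti-CD3 these were 7 with isotype and 5 with anti-LAIR-1, and for anti-LAIR-1 with anti-CD3 there were 2. Beyond this refit, the part of this share in the results below was not tested.

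The label of the cells was checked against marker genes. The T cell marker Cd3e was at 529 to 652 CPM in the 6 unstimulated libraries, 365 to 378 CPM with anti-CD3 and isotype, and 483 to 525 CPM with anti-CD3 and anti-LAIR-1. For Cd8a these were 404 to 441, 325 to 385 and 366 to 428 CPM. B cell markers (4 genes, most abundant Cd79b) summed to at most 9.46 CPM, CD4 T cell markers (3 genes, most abundant Foxp3) to at most 4.73 CPM, and erythroid and platelet markers (2 genes measured, most abundant Ppbp) to at most 3.42 CPM. Myeloid markers (3 genes measured, most abundant Itgam) reached 1.59 CPM and the NK cell marker Klrb1c 0.664 CPM. Activation markers (5 genes, most abundant Cd69) summed to 171 to 199 CPM without anti-CD3 and 1486 to 1814 CPM with it. Lair1 itself had 0 to 7 counts per library, which is too few to compare groups.

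The half-life of an mRNA is set largely by proteins that read its 3′ untranslated region (3′ UTR). ZFP36 family proteins bind AU-rich elements and recruit the deadenylases that shorten the poly(A) tail, Regnase-1 (Zc3h12a) and the roquins act on stem-loops, and HuR (Elavl1) binds AU-rich elements and protects the mRNA. In T cells these proteins restrain or sustain cytokine mRNAs, and T cell receptor signalling changes their amounts and, through MALT1, cleaves Regnase-1 and the roquins.

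Anti-CD3 with isotype changed most of the 9 genes. With p from the quasi-likelihood test of edgeR, adjusted over all symbols tested after Benjamini-Hochberg, 7 of 9 were called at an adjusted p under 0.05, 4 higher (Ybx3, Ybx1, Zfp36l1 and Elavl1) and 3 lower (Zfp36l2, Zc3h12a and Zfp36). Of all 8690 symbols tested, 71.3% were called (35.3% higher and 36.1% lower), so the share among the 9 genes is near that of any gene. With anti-LAIR-1 in both groups, 5 of 9 were called, the same 4 genes higher and Zfp36l2 lower, against 72.7% of 9000 symbols (36.4% higher and 36.3% lower). In bulk RNA, fewer cells of a type and less RNA per cell cannot be told apart.

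Other scalings of the libraries moved the median of all genes in the anti-CD3 comparisons. Upper quartile factors moved it by -0.18 with isotype and -0.21 with anti-LAIR-1 on the log2 scale, and library totals moved it by -0.09 and -0.11. Changes of that size in the weaker genes (Zfp36, Zc3h12a, Rc3h1 and Rc3h2) therefore depend on the scaling, while the 5 stronger genes kept their direction and their call under all 17 alternatives in both comparisons.

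**Figure D1:**
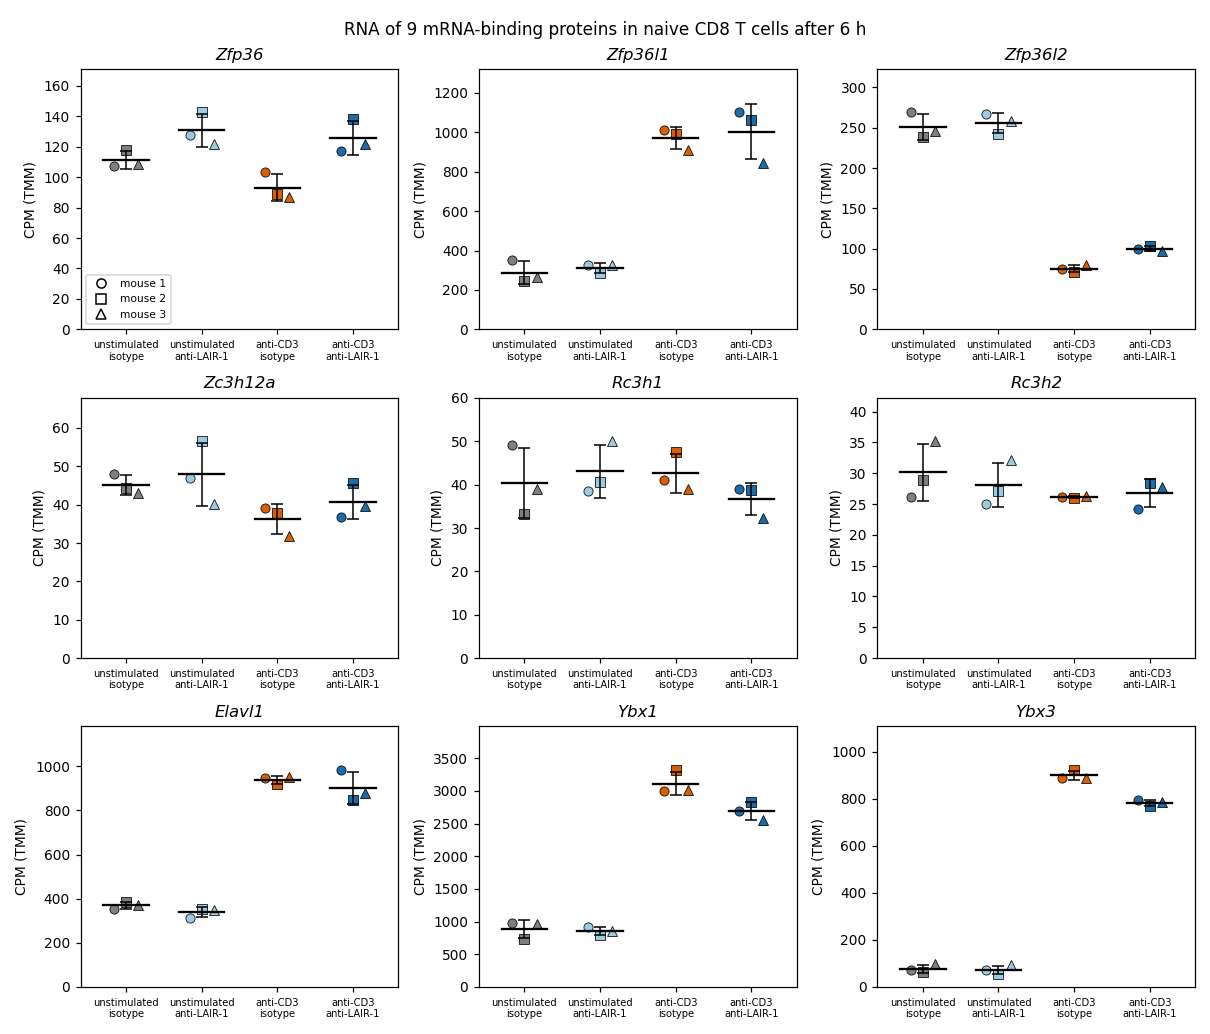
Level of each gene in CPM (TMM scaled, linear axes from 0) in the 4 groups; symbols are the 3 mice, thick lines the mean and bars the SD. Zfp36l1, Elavl1, Ybx1 and Ybx3 are higher in all 6 anti-CD3 libraries than in any unstimulated library, and Zfp36l2 is lower.

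Among the decay activators, Zfp36l1 was measured at 352, 244 and 263 CPM in mice 1, 2 and 3 of the unstimulated isotype group and at 325, 283 and 328 CPM with anti-LAIR-1 alone. With anti-CD3 it was at 1014, 993 and 908 CPM with isotype and at 1102, 1064 and 846 CPM with anti-LAIR-1. The unstimulated and anti-CD3 libraries do not overlap, while the isotype and anti-LAIR-1 libraries overlap under both conditions. Anti-CD3 raised Zfp36l1 by 1.68 on the log2 scale (SE 0.11, adjusted p 1.254e-12, edgeR) with isotype and by 1.67 (SE 0.09) with anti-LAIR-1, in 3 of 3 mice each.

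Zfp36l2, a close paralogue known for its part in lymphocyte quiescence, moved the other way. It was at 269, 239 and 246 CPM in the unstimulated isotype group and at 267, 242 and 258 CPM with anti-LAIR-1 alone. With anti-CD3 it was at 75.3, 71.6 and 79.3 CPM with isotype and at 99.3, 103 and 97.1 CPM with anti-LAIR-1. The 4 groups thus form 3 levels: both unstimulated groups together at the top, anti-CD3 with anti-LAIR-1 well below them, and anti-CD3 with isotype lowest, with no overlap between these levels. The log2 change with anti-CD3 was -1.81 (SE 0.10, adjusted p 1.901e-13, edgeR) with isotype and -1.37 (SE 0.08) with anti-LAIR-1, lower in 3 of 3 mice each.

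Zfp36 (tristetraprolin), an early response gene in many cell types, showed smaller differences. Its levels were 107, 118 and 109 CPM in the unstimulated isotype group, 128, 143 and 122 CPM with anti-LAIR-1 alone, 103, 88.8 and 87.0 CPM with anti-CD3 and isotype, and 117, 138 and 122 CPM with both antibodies. The anti-CD3 isotype libraries were the lowest of the 12, below every library of the other 3 groups. With anti-CD3 and isotype the log2 change was -0.34 (SE 0.11, adjusted p 0.00981, edgeR), lower in 3 of 3 mice. This call was lost with DESeq2 (adjusted p 0.0655), without a filter on low counts (0.0788), in DESeq2 with the mouse as a replicate block (0.146), and without anti-CD3 isotype mouse 2 (0.0589) or mouse 3 (0.0741), within a range of 3.013e-04 to 0.146 over all alternatives. With anti-LAIR-1 in both groups the change was -0.07 (95% interval -0.27 to 0.12) and was not called, though upper quartile factors gave -0.28 (adjusted p 0.0124).

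The makeup of the reads from the ZFP36 family does not depend on library scaling. Zfp36l1 held 40.6% to 48.4% of the family's reads in the unstimulated isotype libraries and 84.5% to 86.1% with anti-CD3 and isotype. Zfp36l2 held 36.9% to 39.8% and 6.21% to 7.38%. Zfp36 held 14.7% to 19.7% and 7.70% to 8.66%. With anti-CD3 and anti-LAIR-1 the shares were 79.4% to 83.6% for Zfp36l1, 7.53% to 9.12% for Zfp36l2 and 8.91% to 11.4% for Zfp36, in each case without overlap with anti-CD3 and isotype. These are shares of reads, and the genes may differ in how many reads an mRNA yields.

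Zc3h12a, which encodes the endonuclease Regnase-1, was at 48.1, 44.4 and 43.1 CPM in the unstimulated isotype group and at 39.0, 38.0 and 31.9 CPM with anti-CD3 and isotype. The ranges do not overlap. The log2 change was -0.41 (SE 0.15, adjusted p 0.0164, edgeR), lower in 3 of 3 mice. The call was lost with DESeq2 (adjusted p 0.124), without a filter on low counts (0.0922), with all libraries thinned to the smallest total (0.0775), in DESeq2 with the mouse as a replicate block (0.228), and without unstimulated isotype mouse 1 (0.0562) or anti-CD3 isotype mouse 3 (0.131), within a range of 0.00112 to 0.228 over all alternatives. With anti-LAIR-1 the levels were 46.9, 56.6 and 40.2 CPM without anti-CD3 and 36.9, 45.6 and 39.5 CPM with it, which overlap, and the log2 change of -0.26 (95% interval -0.55 to 0.03) was not called. It was called with upper quartile factors (-0.46), with library totals (-0.37, adjusted p 0.0227) and without unstimulated anti-LAIR-1 mouse 3 (adjusted p 0.0305).

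The roquins, which recognise stem-loops in mRNAs of costimulatory receptors, were not called in any comparison by the main edgeR fit. Rc3h1 lay between 32.4 and 50.1 CPM and Rc3h2 between 24.1 and 35.2 CPM over the 12 libraries. For Rc3h1 the log2 change with anti-CD3 was -0.01 (95% interval -0.33 to 0.31) with isotype and -0.24 (-0.52 to 0.04) with anti-LAIR-1. The latter was called with upper quartile factors (-0.45, adjusted p 0.00613), library totals (-0.36, adjusted p 0.0246) and thinned libraries (-0.65, adjusted p 0.00210). For Rc3h2 the changes were -0.27 (-0.63 to 0.10) with isotype, called with upper quartile factors (-0.44, adjusted p 0.0277), and -0.09 (-0.40 to 0.21) with anti-LAIR-1.

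Elavl1, which encodes HuR, was at 353, 384 and 371 CPM in the unstimulated isotype group and at 313, 354 and 349.9 CPM with anti-LAIR-1 alone. With anti-CD3 it was at 949, 919 and 952 CPM with isotype and at 984, 846 and 879.8 CPM with anti-LAIR-1. All 6 anti-CD3 libraries lie above all 6 unstimulated ones. The log2 change with anti-CD3 was 1.27 (SE 0.08, adjusted p 3.659e-12, edgeR) with isotype and 1.40 (SE 0.08) with anti-LAIR-1, in 3 of 3 mice each.

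Ybx3, a Y-box protein that binds mRNA and DNA, had the largest change of the 9 genes with anti-CD3. It was at 71.3, 62.6 and 95.7 CPM in the unstimulated isotype group and at 70.6, 53.7 and 91.0 CPM with anti-LAIR-1 alone. With anti-CD3 it was at 890.5, 924 and 890.6 CPM with isotype and at 796, 768 and 785 CPM with anti-LAIR-1. The anti-CD3 libraries lie far above the unstimulated ones, and within them all 3 anti-LAIR-1 libraries lie below all 3 isotype libraries. The log2 change with anti-CD3 was 3.50 (SE 0.12, adjusted p 2.374e-17, edgeR), an 11.3-fold rise, with isotype and 3.43 (SE 0.12), a 10.8-fold rise, with anti-LAIR-1, in 3 of 3 mice each.

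Ybx1, the best known Y-box protein and a packaging and stabilising factor of mRNA, was at 975, 728 and 961 CPM in the unstimulated isotype group and at 917, 789.7 and 856 CPM with anti-LAIR-1 alone. With anti-CD3 it was at 2997, 3322 and 3016 CPM with isotype and at 2691, 2837 and 2558 CPM with anti-LAIR-1. The order is that of Ybx3: unstimulated groups overlapping and low, anti-CD3 with anti-LAIR-1 below anti-CD3 with isotype in every mouse. The log2 change with anti-CD3 was 1.73 (SE 0.10, adjusted p 1.350e-13, edgeR) with isotype and 1.64 (SE 0.07) with anti-LAIR-1, in 3 of 3 mice each. Ybx3 held 6.82% to 9.05% of the reads of this pair in the unstimulated isotype libraries and 21.8% to 22.9% with anti-CD3 and isotype.

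**Figure D2:**
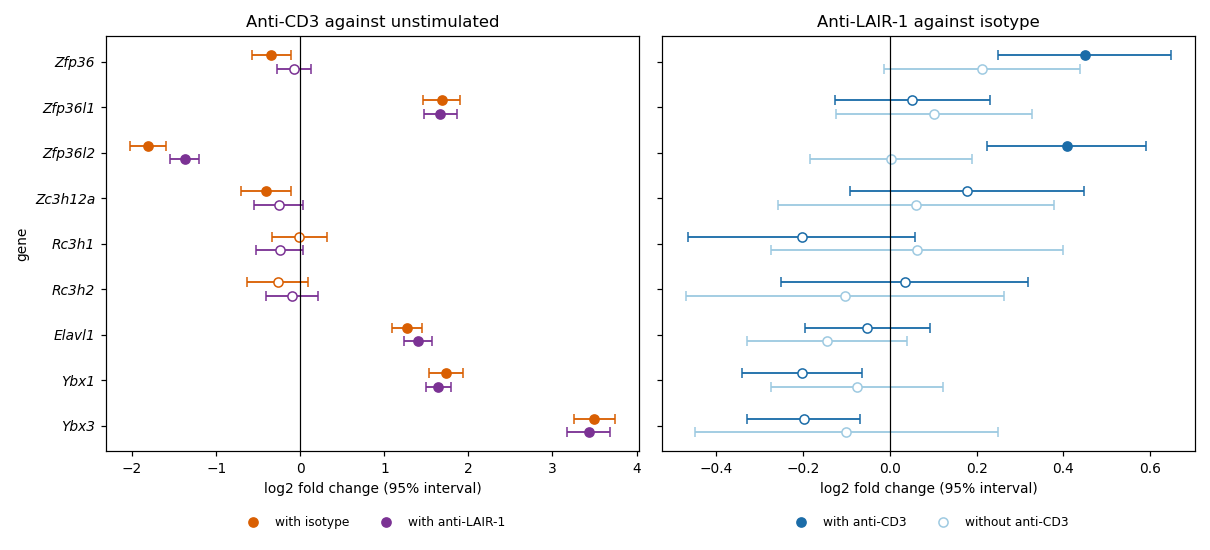
Log2 fold change of each gene with its 95% interval from edgeR, for anti-CD3 against unstimulated (left) and anti-LAIR-1 against isotype (right); filled points are called at an adjusted p under 0.05. The axes differ in scale: the anti-CD3 changes reach 3.50, the anti-LAIR-1 changes 0.45. Upper quartile factors also call Rc3h2 lower in the anti-CD3 comparison with isotype.

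Anti-LAIR-1 on anti-CD3-treated cells raised Zfp36 and Zfp36l2. These were 2 of 9 genes called, both higher, against 5.76% of 8800 symbols (3.90% higher and 1.86% lower). Those 507 symbols became 293 without anti-CD3 isotype mouse 2, and 315 or 334 without anti-CD3 anti-LAIR-1 mouse 2 or 3. The comparison shares its isotype libraries with the anti-CD3 comparison with isotype, so the values above and here are not independent. Zfp36 was 0.45 higher on the log2 scale (SE 0.09, adjusted p 0.00788, edgeR), a 1.36-fold difference, with 0.19, 0.64 and 0.48 in the 3 mice. Zfp36l2 was 0.41 higher (SE 0.09, adjusted p 0.00847, edgeR), a 1.33-fold difference, with 0.40, 0.52 and 0.29 in the 3 mice. The groups do not overlap for either gene.

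Both calls have limits. The call of Zfp36 was lost without anti-CD3 anti-LAIR-1 mouse 2 (0.37, adjusted p 0.0652, range 1.597e-04 to 0.0652 over all alternatives). The call of Zfp36l2 was lost in DESeq2 with the mouse as a replicate block (0.40, adjusted p 0.0965) and with thinned libraries (0.34, adjusted p 0.136), over a range of 0.00212 to 0.136. The T cell markers Cd3g (0.54), Cd3e (0.45) and Cd3d (0.45) were also called higher here, and their part in the differences of Zfp36 and Zfp36l2 was not tested.

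The other 7 genes were not called. Ybx1 and Ybx3 were both at -0.20 (95% intervals -0.34 to -0.07 and -0.33 to -0.07), lower in 3 of 3 mice without overlap, with adjusted p 0.0814 and 0.0700 by edgeR. DESeq2 called both lower (adjusted p 0.0294 and 0.0159), which brings its count to 4 of 9, and edgeR without a filter called Ybx1 (0.0423). With the mouse as a replicate block, DESeq2 called neither Ybx1 nor Ybx3: its count was 1 of 9, higher. Rc3h1 was also at -0.20, but with a wider interval (-0.47 to 0.06). Its groups did not overlap but nearly touched, with the highest anti-LAIR-1 library at 38.9 CPM and the lowest isotype library at 39.0 CPM. Intervals for the others were -0.13 to 0.23 for Zfp36l1, -0.09 to 0.45 for Zc3h12a, -0.25 to 0.32 for Rc3h2 and -0.20 to 0.09 for Elavl1.

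Anti-LAIR-1 without anti-CD3 called none of the 9 genes. By edgeR, 0 of 8770 symbols were called (0%), 384 had an unadjusted p under 0.05, and DESeq2 called 0. Of the 9 genes, 0 had an unadjusted p under 0.05. Zfp36 came nearest at 0.21 (95% interval -0.01 to 0.44), higher in 3 of 3 mice without overlap between the groups. The other 8 lay between -0.14 (Elavl1) and 0.10 (Zfp36l1).

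The test of whether the effect of anti-LAIR-1 differed with and without anti-CD3 (the interaction over all 12 libraries) called 0 of the 9 genes by edgeR, against 2.07% of 9223 symbols (1.82% higher and 0.249% lower). At an unadjusted p under 0.05 there was 1, Zfp36l2, at 0.41 (95% interval 0.15 to 0.66, adjusted p 0.0893), positive in 3 of 3 mice. DESeq2 called 1, again Zfp36l2 (adjusted p 0.0327), and its adjusted p ran from 0.0327 to 0.253 over all alternatives. For Zfp36 the interaction was 0.24 (-0.06 to 0.54), so its call with anti-CD3 is not shown to differ from its value without.

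The wider machinery of mRNA decay was followed in 87 further genes in 5 lists. With anti-CD3 and isotype, 44 of 79 tested were called higher and 14 lower, with a median log2 change of 0.46 against -0.03 for all symbols tested. The share called, 73.4%, is near the 71.3% of all symbols, while more were higher (55.7% against 35.3%) and fewer lower (17.7% against 36.1%). The RNA exosome and its Ski cofactor complex, which degrade mRNA from the 3′ end, stood at 14 of 16 higher and 1 lower, with a median of 1.29. Dis3, the catalytic exonuclease, was at 2.46, Exosc2 at 1.96 and Exosc6 at 1.82, while the Ski helicase Skiv2l was at -1.04. Dis3 went from 12.6, 13.1 and 9.46 CPM to 60.8, 77.8 and 68.0 CPM.

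Of the deadenylases, partners of the ZFP36 family, 5 of 14 were called higher (Cnot11 1.75, Cnot7 1.15) and 4 lower (Cnot6l -0.95, Pan3 -0.95), which is near the shares of all symbols (35.7% against 35.3% higher, 28.6% against 36.1% lower). Of the decapping and 5′ decay genes, 9 of 18 were called higher (Lsm7 1.61, Lsm2 1.37) and 4 lower (Xrn1 -1.69, Dcp1b -0.93). In nonsense-mediated decay, 3 of 10 were called higher (Upf1 1.13 among them) and 1 lower (Smg1 -0.56). Of other mRNA-binding regulators, 13 of 21 tested were called higher (Hnrnpab 1.95, Syncrip 1.77) and 4 lower (Arid5a -1.81, N4bp1 -1.14). With anti-LAIR-1 in both groups, 46 of 79 were called higher and 16 lower (58.2% and 20.3%, against 36.4% and 36.3% of all symbols). That comparison shares no library with the isotype comparison, but both come from the same 3 mice. Upper quartile factors gave 36 higher and 17 lower with isotype, against 2637 higher and 3616 lower of 8690 symbols under that scaling. With anti-LAIR-1 they gave 38 higher and 22 lower, against 2699 and 3956 of 9000.

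Anti-LAIR-1 on anti-CD3-treated cells called 1 of these 79 genes, against 5.76% of all symbols: Upf3b, a core factor of nonsense-mediated decay, at -0.53 (SE 0.14, adjusted p 0.0303, edgeR). It was at 36.3, 33.0 and 39.3 CPM with isotype and at 28.5, 24.7 and 21.4 CPM with anti-LAIR-1, lower in 3 of 3 mice without overlap. The call was lost in DESeq2 with the replicate block (adjusted p 0.203), with thinned libraries (0.578), without anti-CD3 isotype mouse 1 (0.0646) or mouse 3 (0.124), and without anti-CD3 anti-LAIR-1 mouse 2 (0.0971) or mouse 3 (0.106), over a range of 0.00831 to 0.578. Without anti-CD3, edgeR called 0 of 77 (1 at an unadjusted p under 0.05, 0 by DESeq2). The interaction called 0 of 79 (5 at an unadjusted p under 0.05, 0 by DESeq2).

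**Figure D3:**
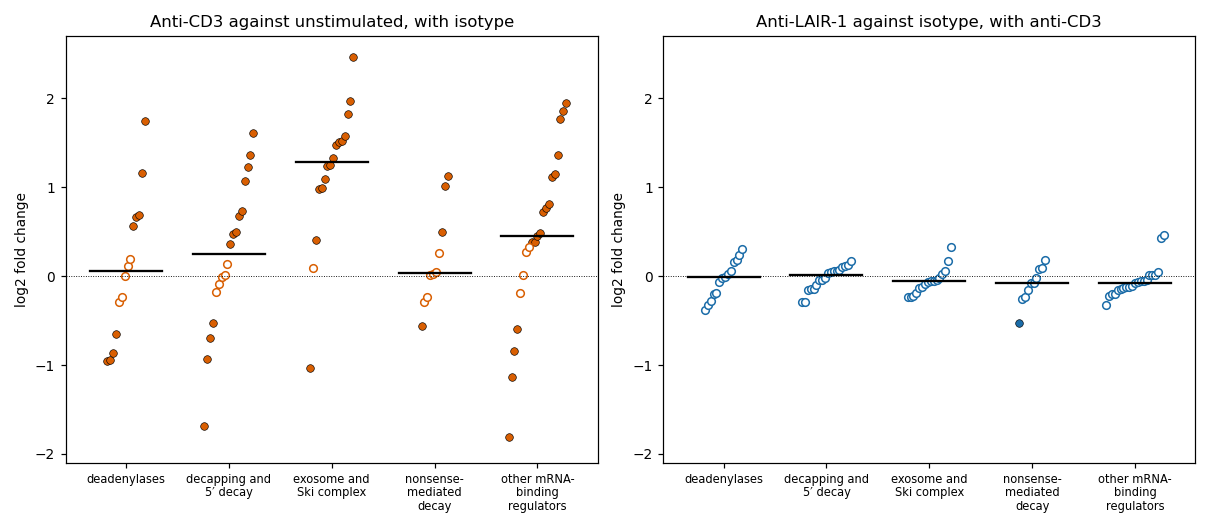
Log2 fold change of the genes of 5 mRNA decay lists for anti-CD3 with isotype (left) and for anti-LAIR-1 with anti-CD3 (right); each point is a gene, filled where called by edgeR at an adjusted p under 0.05, and lines are list medians. The exosome and Ski list has a median of 1.29 at left, and at right only Upf3b is filled.

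Of 6 genes that control these proteins through signalling, anti-CD3 with isotype called 2 higher (Mapkapk3 1.49, Malt1 1.23) and 2 lower (Mapk14 -0.83 among them), 66.7% called against 71.3% of all symbols. MALT1 is the protease that cleaves Regnase-1 and the roquins. Malt1 was at 27.3, 34.1 and 37.4 CPM with anti-CD3 and isotype and at 20.5, 24.1 and 21.4 CPM with anti-CD3 and anti-LAIR-1, without overlap. Its log2 difference with anti-LAIR-1 was -0.60 (SE 0.15, adjusted p 0.0211, edgeR), lower in 3 of 3 mice and the 1 called of the 6, against 5.76% of all symbols. The call was lost in DESeq2 with the replicate block (adjusted p 0.182), with thinned libraries (0.156), without anti-CD3 isotype mouse 2 (0.0705) or mouse 3 (0.108), and without anti-CD3 anti-LAIR-1 mouse 1 (0.0793), over a range of 0.00319 to 0.182. With anti-LAIR-1 in both groups, anti-CD3 called 3 of the 6 higher and 2 lower, 83.3% against 72.7% of all symbols.

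Of mRNAs documented as targets of these proteins, 10 could be tested for anti-LAIR-1 on anti-CD3-treated cells, and 2 were called, both lower, against 5.76% of all symbols (1.86% lower). The list of targets was chosen with earlier results of these data known. Ifng was at 39.3, 38.6 and 38.7 CPM with isotype and at 16.9, 15.3 and 9.73 CPM with anti-LAIR-1, a log2 difference of -1.44 (SE 0.17, adjusted p 4.094e-05, edgeR). Il2 was at 15.4, 18.0 and 17.3 CPM and at 9.35, 6.46 and 8.25 CPM, a log2 difference of -1.07 (SE 0.20, adjusted p 0.00332, edgeR). The groups do not overlap for either, and both calls held under every alternative, with Il2 at -1.61 in thinned libraries. The others were not called: Myc -0.28 (adjusted p 0.0519), Ier3 -0.53, Tnfrsf4 -0.29, Tnf -0.24, Rel -0.13, Nfkbid -0.02, Icos 0.01 and Nfkbiz 0.04. With 1 library left out, Ier3 ran from -0.85 to -0.37, Tnfrsf4 from -0.48 to -0.028, Tnf from -0.36 to -0.15, Rel from -0.28 to -0.015 and Myc from -0.35 to -0.21. Myc was called by DESeq2 (adjusted p 0.0197), without a filter (0.00599), with DESeq2's size factors (0.0465), without mitochondrial genes (0.0455) and without anti-CD3 isotype mouse 1 (0.0240), over a range of 0.00599 to 0.184. Tnf was called with thinned libraries (0.0269) and without anti-CD3 isotype mouse 3 (0.0431), over a range of 0.0269 to 0.523. Ctla4 and Il3 were too low to be tested for anti-LAIR-1 on anti-CD3-treated cells. Anti-CD3 with isotype called 7 of 11 targets higher and 1 lower. The share called, 72.7%, is near that of all symbols (71.3%), with 63.6% against 35.3% higher.

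The 3′ UTRs of the 9 genes were searched for TATTTAT, the core of the site that ZFP36 family proteins bind, on the transcript strand of the longest 3′ UTR annotated for each gene. Which 3′ UTR these cells use was not tested, and a shorter one may hold fewer copies. Zfp36, Zfp36l1, Zfp36l2 and Rc3h2 held 3 copies each, Elavl1 8, Rc3h1 2 and Ybx3 1, while Ybx1 and Zc3h12a held 0. The motif was in 29.5% of the 12445 symbols with an annotated 3′ UTR, and the longer TTATTTATT, in the same 7 genes, was in 8.19%. Longer 3′ UTRs hold the motif more often: the median length was 2161.5 bases with it and 837 without.

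Sites are shown for the ZFP36 family genes, which carry the element their own products bind, for the strongly raised Elavl1 and Ybx3, and for the called targets Ifng (4 copies) and Il2 (3 copies). Of the targets not called for anti-LAIR-1 with anti-CD3, Tnf held 8 copies, Ier3 4 and Rel 2, and whether the motif goes with the call was not tested. Each is 30 bases of 3′ UTR exon from GRCm38 (mm10) with GENCODE M21 annotation, written 5′ to 3′ on the transcript strand with TATTTAT in capitals. Zfp36 is at chr7:28376950-28376979, Zfp36l1 at chr12:80108166-80108195, Zfp36l2 at chr17:84184913-84184942, Elavl1 at chr8:4285787-4285816, Ybx3 at chr6:131364944-131364973 and Il2 at chr3:37120897-37120926, all on the minus strand. Ifng is at chr10:118445323-118445352 on the plus strand. A match is a run of letters, not a site shown to be bound.
Zfp36: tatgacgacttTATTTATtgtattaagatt
Zfp36l1: aactgttggatTATTTATtttagaaattct
Zfp36l2: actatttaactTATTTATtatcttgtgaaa
Elavl1: gtcatgaaaatTATTTATTTATTTATTTAT
Ybx3: ttttatgccctTATTTATtcctaggatgag
Ifng: aaatctaaaccTATTTATtaatatttaaaa
Il2: ttatctgaaatTATTTATtatattgaattg

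Across all genes, anti-LAIR-1 on anti-CD3-treated cells called 150 of 2505 tested symbols with TATTTAT (5.99%), 73 higher (2.91%) and 77 lower (3.07%). Of 5610 symbols with a 3′ UTR but without the motif, 5.70% were called, 243 higher (4.33%) and 77 lower (1.37%). Of all symbols, 5.76% were called, 3.90% higher and 1.86% lower. With 3 or more copies, 27 of 338 were called (7.99%), 8 higher (2.37%) and 19 lower (5.62%), and with TTATTTATT 50 of 696 were (7.18%), 23 higher and 27 lower. The median log2 change was -0.02 with the motif and 0.01 without. Without anti-CD3 isotype mouse 2 the count with the motif was 86, and without anti-CD3 anti-LAIR-1 mouse 2 it was 93. These are counts with no test, and 3′ UTR length differs between the sets.

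The genes most like each of the 9 over the 12 libraries were named by Pearson's r of log2 CPM among 5156 symbols. The libraries fall into an anti-CD3 and an unstimulated set and share mice, so any gene that follows anti-CD3 correlates highly. Ybx3 was most like Gar1 (0.999) and Srm (0.999), Ybx1 like Ncl (0.998) and Cct8 (0.998), Elavl1 like Rars (0.997) and Ranbp1 (0.996), and Zfp36l1 like Eif1 (0.996) and Pdxk (0.995). Zfp36l2 was most like 4930523C07Rik (0.998) and Tmem50a (0.998). For Ybx3, 1904 symbols exceeded 0.9, and for Zfp36l2 1094 did. For Zfp36, Rc3h1 and Rc3h2 0 symbols did, and for Zc3h12a 1 did. The nearest were Gbp8 (0.833) and Vps25 (0.812) for Zfp36, Prr13 (0.901) and Sp2 (0.870) for Zc3h12a, Pknox1 (0.830) and Zcchc8 (0.763) for Rc3h1, and Tbc1d25 (0.864) and Trim41 (0.808) for Rc3h2.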

How the data were processed

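The authors deposited whole-number read counts per gene symbol. Their counting used BWA with mm10 transcripts and left out any read without a single best position. Collapsing of molecular identifiers and use of strand are not given in the sources used here. Elavl1 overlaps Ccl25 on the other strand and Rc3h2 overlaps the small nucleolar RNA Snord90 on the same strand, so these counts could be shared. Zfp36l1 and Ybx1 have annotated pseudogenes. If these were among the transcripts used, reads fitting gene and pseudogene equally well were left out, which would lower the counts. Other reads could still be shared. The members and lists were chosen with earlier results of these data known. Counts were fitted with edgeR 4.0.16 (limma 3.58.1, R 4.3.3): filterByExpr, TMM, glmQLFit, glmQLFTest, and Benjamini-Hochberg adjustment over all symbols tested, called at an adjusted p under 0.05. Each comparison used its own groups, and the interaction all 12 libraries. Differences per mouse used log2 CPM with a prior count of 2. DESeq2 1.42.0, a replicate block, other scalings, other filters, thinning and leaving out each library were alternatives. Thinning was 1 random draw down to 1781218 counts, the smallest total of all 12 libraries. The smallest anti-CD3 library has 3478294 counts, so comparisons among these lose more counts than needed. The part of the draw and of the lower counts in values from thinned libraries was not tested. The fits were tested on simulated data, where the interaction found the smallest share of the changed genes, so an interaction that was not called may still be present.

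Libraries with the same number come from the same mouse, per the labels. Over 6788 genes, their deviations from group means correlated at a mean r of 0.0644 (18 pairs, -0.0169 to 0.143), against -0.0323 for different mice (36 pairs). No 2 libraries were duplicates: the lowest chi-square per degree of freedom was 3.40 over all 66 pairs, and 4.10 over the 12 pairs within groups. All 9 members passed the filter in every comparison. In each further list, up to 3 genes with the highest and 3 with the lowest change were eligible for naming, among those called and moving alike in 3 of 3 mice. The targets were all named for anti-LAIR-1 with anti-CD3. Some genes of the lists are not reported here. Likeness was over symbols with a mean of at least 20 CPM. The study kept protein-coding genes, while all symbols were kept here.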

Additional observations from a re-analysis of the deposited data

Results flagged for a closer look

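For the T cell marker genes Cd3e and Cd3g, anti-LAIR-1 acted otherwise on anti-CD3-treated than on unstimulated cells by the interaction test of edgeR over 12 libraries. The difference was 0.50 on the log2 scale for Cd3e (adjusted p 0.0227). It was 0.58 for Cd3g (adjusted p 0.00933). The call of Cd3e was lost without unstimulated isotype mouse 2 (adjusted p 0.0838), unstimulated anti-LAIR-1 mouse 1 (0.0816) or 3 (0.0510), anti-CD3 isotype mouse 1 (0.0653) or 3 (0.0510), and anti-CD3 anti-LAIR-1 mouse 2 (0.0517) or 3 (0.0747), over a range of 4.23e-04 to 0.0838. Among the 9 mRNA-binding genes edgeR called 0 (1 at an unadjusted p under 0.05 and 1 called by DESeq2, both Zfp36l2).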

How the results depend on the processing

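Of 486 values of the 9 genes under alternatives other than leaving out a library, 459 kept their direction and their side of the threshold, 9 lost a call, 11 gained one and 7 changed sign. With 1 library left out, 296 of 324 did so, 5 lost a call, 1 gained one and 22 changed sign. The genes that changed sign were not called, and the cause was not tested.

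For anti-LAIR-1 with anti-CD3, DESeq2 called 4 of the 9 genes and gave -0.0016 for Icos. With thinned libraries, 286 symbols, 1 of the 9 genes, 0 other decay genes (edgeR) and 90 symbols with TATTTAT were called, and Rel was at 0.22. Without a filter, 3 other decay genes were called. With 1 library left out, the counts were 293 to 427 symbols, 1 to 2 of the 9 genes, 0 to 1 other decay genes and 86 to 123 symbols with TATTTAT. Log2 changes then ran from -0.018 to 0.15 for Zfp36l1, 0.076 to 0.25 for Zc3h12a, -0.28 to -0.12 for Rc3h1, -0.016 to 0.11 for Rc3h2, -0.12 to -0.0097 for Elavl1, -0.038 to 0.067 for Icos, -0.14 to 0.039 for Nfkbid and -0.077 to 0.14 for Nfkbiz.

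For anti-LAIR-1 without anti-CD3, 5 symbols and 2 with TATTTAT were called without a filter, and 0 to 1 of each with 1 library left out. Thinning gave -0.079 for Zfp36l2. With 1 library left out, log2 changes ran from 0.0032 to 0.27 for Zfp36l1, -0.028 to 0.044 for Zfp36l2, -0.081 to 0.17 for Zc3h12a, -0.059 to 0.23 for Rc3h1, -0.21 to 0.017 for Rc3h2, -0.19 to -0.091 for Elavl1, -0.19 to -0.0088 for Ybx1 and -0.31 to 0.082 for Ybx3.

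For anti-CD3 with isotype, Rc3h1 was at 0.050 in DESeq2, 0.081 without a filter, 0.024 with all 12 libraries in 1 fit, and -0.14 to 0.15 with 1 library left out, where Rc3h2 ran from -0.38 to -0.15. With anti-LAIR-1, upper quartile factors called 8 of the 9 genes, Zfp36 was at 0.019 without a filter, and with 1 library left out Rc3h2 ran from -0.16 to 0.014, Rc3h1 from -0.31 to -0.12, Zc3h12a from -0.37 to -0.12 and Zfp36 from -0.13 to -0.0053.

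For the interaction, DESeq2 called 1 of the 9 genes. Thinning left 104 symbols and 23 with TATTTAT, and leaving out 1 library gave 103 to 186 and 24 to 42. Zfp36l1 then ran from -0.21 to 0.060, Zc3h12a from 0.0065 to 0.26, Rc3h1 from -0.43 to -0.14, Rc3h2 from 0.020 to 0.25, Elavl1 from 0.028 to 0.14, Ybx1 from -0.19 to -0.013 and Ybx3 from -0.28 to 0.11.

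With the mouse as a replicate block, edgeR called 549 symbols and 2 of the 9 genes for anti-LAIR-1 with anti-CD3, and Rc3h1 was at 0.0079 for anti-CD3 with isotype. The edgeR block changed no call of the 9 genes. DESeq2 with the replicate block called 224 symbols, 1 of the 9 genes, 0 other decay genes and 70 symbols with TATTTAT for anti-LAIR-1 with anti-CD3, and gave 0.067 for Rc3h1 for anti-CD3 with isotype.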
